A study of Mus musculus with 6 samples.

Results

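The 9 genes described here encode the nuclear machinery that methylates adenosine in mRNA and a related enzyme that works alone: Wtap, Mettl3, Mettl14, Virma, Rbm15, Rbm15b, Zc3h13, Cbll1 and Mettl16. They were chosen by symbol, as the known members of this machinery, from the 55703 genes of the table, and all 9 passed the filter on low values and were tested. Total RNA was sequenced from interscapular brown adipose tissue (iBAT), a depot of heat-producing fat on the upper back, taken at 8 weeks of age from C57BL/6 mice. Every mouse carried Wtap with both alleles flanked by loxP sites (WTAPflox/flox). The 3 Wtap flox/flox libraries had no Cre recombinase, and the 3 Wtap-BKO libraries came from WTAPflox/flox UCP1-iCre+/- mice. In those mice Cre is translated from the Ucp1 transcript, so deletion is directed to cells that express Ucp1, the uncoupling protein of brown adipocytes. Endothelial, immune and stromal cells of the pad are outside that target, but whether Wtap stayed intact in them was not tested here. In such bulk tissue, fewer cells of a type and less RNA per cell cannot be told apart. No library came from mice with Cre alone. Loss of Wtap and the presence of Cre with its modified Ucp1 allele therefore cannot be told apart either. Between 15979694 and 19005123 reads per library were assigned to genes, and those of a group are separate biological replicates by the study's account. Flox/flox replicate 2 and Wtap-BKO replicate 3 stand apart by skeletal muscle transcripts, with the 15 muscle markers at 872 and 1469 FPKM in sum.

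N6-methyladenosine (m6A) is the most common internal modification of mRNA and influences splicing, export, translation and decay. METTL3 transfers the methyl group from S-adenosylmethionine, METTL14 binds the RNA beside it, and WTAP anchors this pair in nuclear speckles. VIRMA is the large scaffold of the complex, ZC3H13 keeps it in the nucleus, CBLL1 (HAKAI) is a ubiquitin ligase that associates with it, and RBM15 and RBM15B are RNA-binding adaptors. METTL16 is not part of the complex: it methylates the U6 spliceosomal RNA and hairpins of the Mat2a mRNA, which encodes the main S-adenosylmethionine synthetase outside the liver.

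Some sequences show what these genes are and what a gene-level value can see. The catalytic core is given first, because the motif that separates the active METTL3 from its inactive partner METTL14 and from METTL16 lies in a few codons. Coding strands of the annotated transcripts (GENCODE on GRCm38) are written 5′ to 3′ with the motif codons in capitals: DPPW at residues 395 to 398 of 580 in METTL3, EPPL at residues 192 to 195 of 456 in METTL14 and NPPF at residues 184 to 187 of 553 in METTL16.
Mettl3 DPPW: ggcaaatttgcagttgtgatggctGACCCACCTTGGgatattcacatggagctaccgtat
Mettl14 EPPL: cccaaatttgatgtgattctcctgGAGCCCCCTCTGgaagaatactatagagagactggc
Mettl16 NPPF: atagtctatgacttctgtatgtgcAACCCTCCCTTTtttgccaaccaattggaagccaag

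The exon removed in the Wtap-BKO mice is exon 4. The transcript behind this numbering is not named, and that of the annotated transcript Wtap-203 is assumed here. There exon 4, which 7 of the 8 coding transcripts hold, spans chr17:12981750-12981808 on the minus strand (GRCm38) and is wholly coding. Its 59 bases are shown because this is the only exon that the design deletes.
Wtap exon 4: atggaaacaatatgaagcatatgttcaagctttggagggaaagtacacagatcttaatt
That length is not a multiple of 3. In the annotated sequence, joining exon 3 to exon 5 shifts the frame and leaves 38 codons before a stop, against 396 in the full transcript. The join below is built from the reference, not read from these libraries. It starts in frame with 26 bases of exon 3, goes on with exon 5, and has the stop codon in capitals.
Wtap exon 3 joined to exon 5: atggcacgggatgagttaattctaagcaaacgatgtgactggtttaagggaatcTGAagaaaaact

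Total Wtap RNA rose in the libraries labelled Wtap-BKO. Wtap (ENSMUSG00000060475, chromosome 17, 12966796 to 12994169, minus strand) was measured in FPKM (fragments scaled by gene length and library size) at 8.00, 8.63 and 8.16 in Wtap flox/flox replicates 1 to 3 and at 11.8, 12.3 and 12.7 in Wtap-BKO replicates 1 to 3. The highest flox/flox library lay below the lowest Wtap-BKO library. The means were 8.26 ± 0.326 and 12.3 ± 0.463 FPKM (SD, n = 3), a 1.49-fold difference. It rested on 805 to 906 reads in the flox/flox libraries and 1327 to 1489 in the Wtap-BKO libraries. On the log2 scale the difference was 0.57 ± 0.0915 (SE, 95% interval 0.35 to 0.78, limma adjusted p = 0.0160). Exon 4, numbered as in Wtap-203, makes up 0.944% of the 6248 bases over which Wtap reads were counted, so this total is no check on the deletion or on the labels. The groups are called by their labels throughout, and directions below rest on those labels. Wtap no longer passed in the fits that left out flox/flox replicate 1 (limma adjusted p = 0.0673), replicate 2 (0.0588), replicate 3 (0.0513) or, of the other group, replicate 3 (0.0627), while the log2 difference stayed between 0.54 and 0.60 in all 6 fits with 1 library left out.

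Mettl16 also rose. The Mettl16 gene (ENSMUSG00000010554, chromosome 11, 74770830 to 74828525, plus strand) was at 1.26, 1.48 and 1.26 FPKM in Wtap flox/flox and at 2.03, 2.36 and 2.43 FPKM in Wtap-BKO. Again the groups did not overlap. The means of 1.33 ± 0.127 and 2.28 ± 0.213 FPKM (SD, n = 3) stood 1.71-fold apart, on 275 to 333 reads against 534 to 629. The log2 difference was 0.73 ± 0.153 (SE, 95% interval 0.37 to 1.09, limma adjusted p = 0.0316). This call was lost in 5 of the 6 fits that left out 1 library, with an adjusted p of 0.104 without flox/flox replicate 1, 0.0743 without 2, 0.0813 without 3, 0.0821 without Wtap-BKO replicate 2 and 0.105 without replicate 3. It held without Wtap-BKO replicate 1 (0.0425). It was also lost with no filter on low values (0.0869), where more genes enter the adjustment. The log2 difference of Mettl16 ranged from 0.68 to 0.80 over the same 6 fits.

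Of the 9 genes, Wtap and Mettl16 were therefore called higher and 0 were called lower. Over all 13507 tested genes, 6.1% were called higher and 3.88% lower. At an unadjusted p under 0.05 the same 2 members were higher and 0 lower, where 15.7% of all tested genes were higher and 13.2% lower, so 2 of 9 is near that background. Voom on the recovered reads called 2 higher and 0 lower, and at an unadjusted p it and 4 other alternatives had 1 member lower. The median log2 difference of the 9 was 0.052, beside -0.004 for all tested genes. Without both libraries that held muscle transcripts, 0 genes of the whole table were called by limma, with 1305 higher and 948 lower at an unadjusted p under 0.05. Wtap then differed by 0.57 (limma adjusted p = 0.179) and Mettl16 by 0.75 (0.207), both log2 differences as large as with all libraries.

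**Figure D1:**
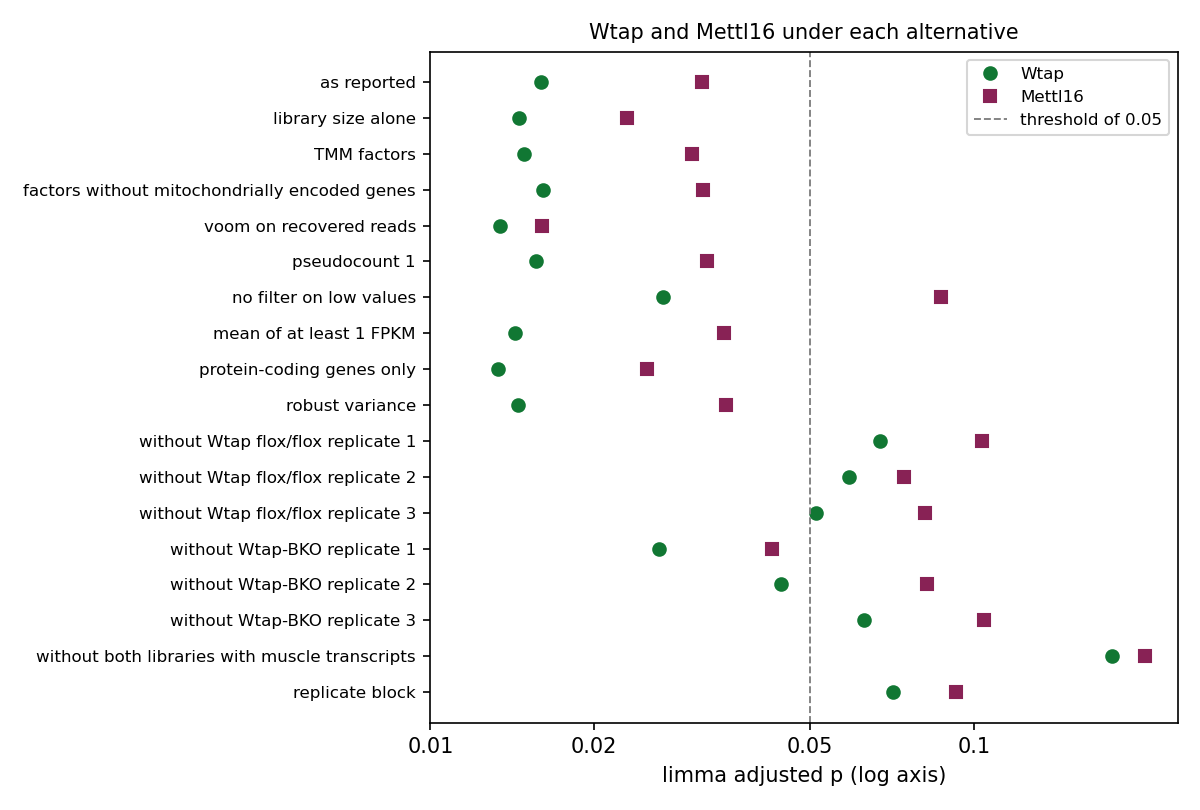
Limma adjusted p (x axis, log scale) of Wtap and Mettl16 as reported and under each alternative (rows), with the threshold of 0.05 as a dashed line. Other scalings, voom and a pseudocount of 1 leave both genes under the threshold, and leaving out libraries takes Wtap to at most 0.179 and Mettl16 to at most 0.207.

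**Figure D2:**
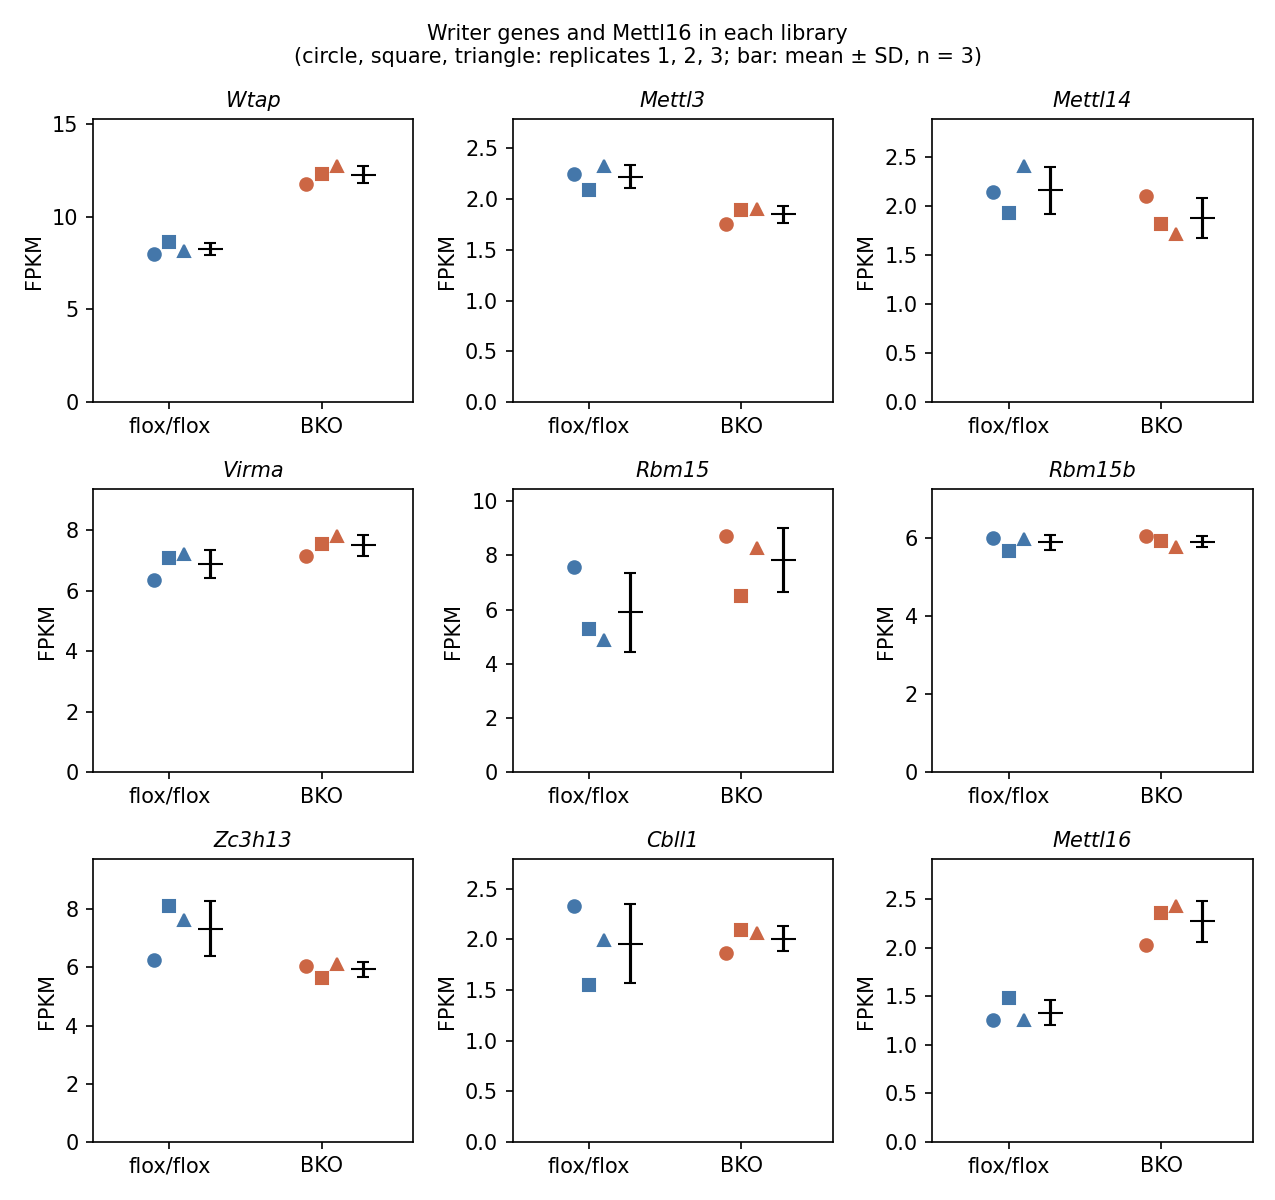
FPKM of the 9 genes in each library (y axes, all starting at 0) for Wtap flox/flox and Wtap-BKO, with circles, squares and triangles for replicates 1, 2 and 3 and the bar for mean ± SD (n = 3). Wtap and Mettl16 are higher in all Wtap-BKO libraries, Mettl3 and Zc3h13 are lower in all of them, and the groups overlap for the other 5 genes.

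Neither gene of the catalytic pair was called. Mettl3 (ENSMUSG00000022160, chromosome 14, 52294841 to 52305128, minus strand) was at 2.25, 2.09 and 2.32 FPKM in Wtap flox/flox and at 1.75, 1.89 and 1.90 in Wtap-BKO. All Wtap-BKO libraries were lower, with means of 2.22 ± 0.117 and 1.85 ± 0.0858 FPKM (SD, n = 3). The log2 difference was -0.25 ± 0.130 (SE, 95% interval -0.56 to 0.05, limma adjusted p = 0.250). Each value rested on 166 to 207 reads, for which counting alone gives a coefficient of variation of 6.95% to 7.76%, and the SD was 5.27% and 4.64% of the mean. Differences as low as -0.56 lie within this interval.

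Mettl14 (ENSMUSG00000028114, chromosome 3, 123368297 to 123386108, minus strand) was at 2.14, 1.94 and 2.41 FPKM in Wtap flox/flox and at 2.10, 1.82 and 1.72 FPKM in Wtap-BKO. Here the groups overlapped. The log2 difference of -0.19 ± 0.153 (SE) had a 95% interval of -0.55 to 0.17 (limma adjusted p = 0.453), and it was -0.11 without flox/flox replicate 3 and also -0.11 with library size alone.

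Among the scaffold and adaptor genes none was called. Virma (ENSMUSG00000040720, chromosome 4, 11485958 to 11550684, plus strand) was at 6.36, 7.09 and 7.21 FPKM in Wtap flox/flox and at 7.14, 7.55 and 7.80 in Wtap-BKO. The ranges overlapped, and the log2 difference was 0.12 ± 0.102 (SE, 95% interval -0.12 to 0.36, limma adjusted p = 0.471). It was 0.067 without flox/flox replicate 1 and 0.21 with library size alone. Zc3h13 (ENSMUSG00000022000, chromosome 14, 75284373 to 75344426, plus strand) was at 6.26, 8.10 and 7.63 FPKM in Wtap flox/flox and at 6.04, 5.63 and 6.12 FPKM in Wtap-BKO. Its groups did not overlap, but flox/flox replicate 1 lay close to the Wtap-BKO libraries. The log2 difference was -0.29 ± 0.126 (SE, 95% interval -0.59 to 0.0044, limma adjusted p = 0.178).

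Cbll1 (ENSMUSG00000020659, chromosome 12, 31484829 to 31499616, minus strand) was at 2.33, 1.55 and 1.99 FPKM in Wtap flox/flox, a range that held all 3 Wtap-BKO values of 1.86, 2.10 and 2.06 FPKM. The log2 difference of Cbll1 was 0.053 ± 0.179 (SE, 95% interval -0.37 to 0.48, limma adjusted p = 0.876), and it fell below 0 without flox/flox replicate 2 (-0.098). With 101 to 169 reads per library it was the member with the fewest reads.

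The paralogs Rbm15 and Rbm15b, which encode alternative adaptors, differed in how much they varied. Rbm15 (ENSMUSG00000048109, chromosome 3, 107325421 to 107333673, minus strand) was at 7.57, 5.27 and 4.86 FPKM in Wtap flox/flox and at 8.70, 6.48 and 8.29 FPKM in Wtap-BKO. Its SD was 24.8% of the flox/flox mean and 15.1% of the Wtap-BKO mean, where counting alone would give 3.67% and 3.06%. The log2 difference was 0.42 ± 0.198 (SE, 95% interval -0.052 to 0.88, limma adjusted p = 0.217). Rbm15b (ENSMUSG00000074102, chromosome 9, 106880918 to 106887428, minus strand) varied little, at 6.01, 5.66 and 5.98 FPKM in Wtap flox/flox and at 6.04, 5.92 and 5.75 in Wtap-BKO. Its log2 difference was 0.0057 ± 0.0947 (SE, 95% interval -0.22 to 0.23, limma adjusted p = 0.977). The Rbm15b SD, 3.32% and 2.42% of the group means, was at or below the 3.95% and 3.77% that counting alone gives.

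**Figure D3:**
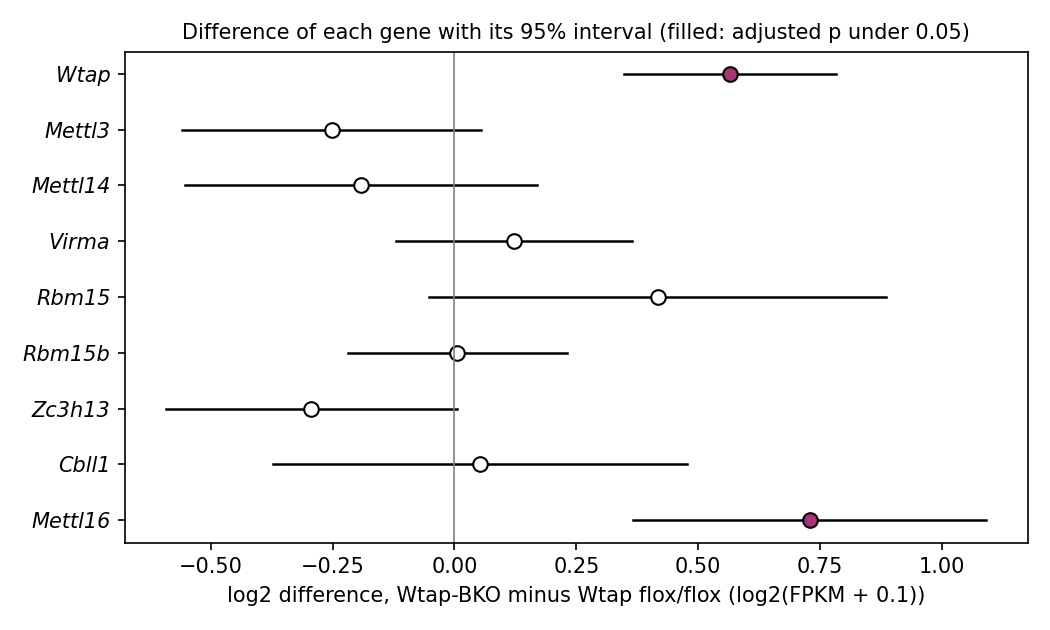
Log2 difference between Wtap-BKO and Wtap flox/flox for each gene (x axis, log2(FPKM + 0.1)), with its 95% interval from limma as a line and a filled point where the adjusted p was under 0.05. The intervals of Wtap (0.35 to 0.78) and Mettl16 (0.37 to 1.09) lie above 0, and those of the other 7 genes include 0.

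In all, the 3 libraries of each group did not overlap for 4 of the 9 genes, higher in Wtap-BKO for 2 (Wtap and Mettl16) and lower for 2 (Mettl3 and Zc3h13). Over all tested genes this held for 18.2% in the higher direction and 16.9% in the lower, so 2 of 9 in each direction is close to the background.

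The 9 genes fell into a more and a less abundant set on the deposited per-length scale. In Wtap flox/flox the order of mean FPKM was Wtap, Zc3h13 (7.33 ± 0.956), Virma (6.89 ± 0.457), Rbm15 (5.90 ± 1.46), Rbm15b (5.88 ± 0.196), Mettl3, Mettl14 (2.16 ± 0.236), Cbll1 (1.96 ± 0.391) and Mettl16. The ranges of neighbours in this order overlapped, except between Rbm15b and Mettl3 and between Cbll1 and Mettl16. Wtap lay above 65.9% of the tested genes in mean FPKM, and Mettl16 above 18.0%. In Wtap-BKO the order was Wtap, Rbm15 (7.83 ± 1.18), Virma (7.50 ± 0.335), Zc3h13 (5.93 ± 0.263), Rbm15b (5.91 ± 0.143), Mettl16, Cbll1 (2.01 ± 0.126), Mettl14 (1.88 ± 0.200) and Mettl3. There the ranges were separate between Wtap and Rbm15, between Virma and Zc3h13 and between Rbm15b and Mettl16, and the other neighbours overlapped. Mettl16 thus stood at place 9 in flox/flox and 6 in Wtap-BKO.

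This order depends on the length that divides the reads. The deposited length equals the union of all annotated exons of a gene, and the main coding transcript covers 33.0% of it for Wtap, 36.9% for Mettl14, 39.9% for Mettl3 and 58.5% for Rbm15, but 91.1% to 100% for the other 5. Another scale, per kilobase of the main coding transcript, was chosen after the data were seen. It divided all reads of a gene by that length, also any reads from exons outside that transcript. Its values are thus not levels of that transcript alone. On it Wtap reached 25.1 ± 0.988 in flox/flox and 37.2 ± 1.40 in Wtap-BKO. Mettl16 was then at place 9 in flox/flox and 8 in Wtap-BKO (1.46 ± 0.140 and 2.50 ± 0.234). Wtap stayed at place 1 in both groups. In flox/flox the gap below Rbm15b then closed. Rbm15b (5.88 ± 0.196), Mettl14 (5.85 ± 0.639) and Mettl3 (5.57 ± 0.293) were neighbours whose ranges overlapped. In Wtap-BKO Rbm15b (5.91 ± 0.143) stayed separate from Mettl14 (5.09 ± 0.541). The break between Rbm15b and Mettl3 in flox/flox thus depends on which length is used, and neither scale separates the transcripts of a gene. The FPKM ratio of a gene between the groups is not affected by this choice, since a gene has 1 length in all libraries. Whether the groups differed in which transcripts of a gene they used was not tested.

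Some members share bases with a neighbour, and the sources used here do not say if reads were counted by strand. Of the Mettl3 exon bases, 933 (18.4%) overlap exons of Tox4 on the other strand. Tox4 was at 7.61, 6.99 and 7.15 FPKM in Wtap flox/flox and at 5.39, 6.18 and 5.98 in Wtap-BKO (limma adjusted p = 0.109), the same direction as Mettl3. Reads in the shared bases may have been counted for Mettl3, for Tox4 or for neither. How far this raised or lowered the Mettl3 value was not tested. Cbll1 shares 704 bases (17.6%) with Gm29542 on the other strand, and these are 100% of the Gm29542 exon bases. Gm29542 was at 0 in all 6 libraries. If reads in shared bases were left out of the counts, it would be at 0 in any case. Its 0 thus cannot show whether the overlap changed the Cbll1 value, which was not tested. Rbm15b shares 14 bases with Manf and 75 with Dcaf1, and Virma shares 0 exon bases with Gm11831, which lies within its bounds.

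Ratios within a library do not depend on the scaling between libraries, and 6 pairs were compared. Wtap relative to Mettl3 stood at a ratio of 3.45, 3.98 and 3.41 in Wtap flox/flox and 6.43, 6.22 and 6.40 in Wtap-BKO, from FPKM + 0.1. All Wtap-BKO ratios were higher. The log2 ratio rose from 1.85 ± 0.124 to 2.67 ± 0.026 (SD, n = 3), a difference of 0.82 ± 0.0733 (SE), with an exact two-sided permutation p of 0.1, the smallest that 3 against 3 libraries allow, and 0.2 after adjustment over the 6 pairs. No pair could therefore pass 0.05, and the values are given for their size.

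Wtap relative to its binding partner Virma was at 1.25, 1.21 and 1.13 in Wtap flox/flox and at 1.64, 1.62 and 1.62 in Wtap-BKO. The log2 difference was 0.44 ± 0.0445 (SE, n = 3 per group, exact permutation p = 0.1, adjusted 0.2). Mettl16 relative to Mettl3 was at 0.578, 0.721 and 0.562 in Wtap flox/flox and at 1.15, 1.24 and 1.26 in Wtap-BKO, so that Mettl16 FPKM passed that of Mettl3 in all Wtap-BKO libraries. That log2 difference was 0.98 ± 0.120 (SE, n = 3 per group, exact permutation p = 0.1, adjusted 0.2). That crossing depends on which length is used. With all reads of each gene divided by the length of its main coding transcript, Mettl3 stayed above Mettl16 in Wtap-BKO. The values were 4.64 ± 0.215 against 2.50 ± 0.234, with separate ranges. Which scale is nearer to the transcript levels was not tested.

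Mettl14 relative to Mettl3, the catalytic pair, was at 0.954, 0.929 and 1.04 in Wtap flox/flox and at 1.19, 0.962 and 0.908 in Wtap-BKO. The groups overlapped, with a log2 difference of 0.061 ± 0.128 (SE, n = 3 per group, exact permutation p = 0.8). Rbm15 relative to Rbm15b differed by 0.41 ± 0.226 on the log2 scale (SE, n = 3 per group, exact permutation p = 0.2, adjusted 0.3), and Zc3h13 relative to Cbll1 by -0.35 ± 0.278 (SE, n = 3 per group, exact permutation p = 0.3, adjusted 0.36). Both of these pairs overlapped between the groups.

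**Figure D4:**
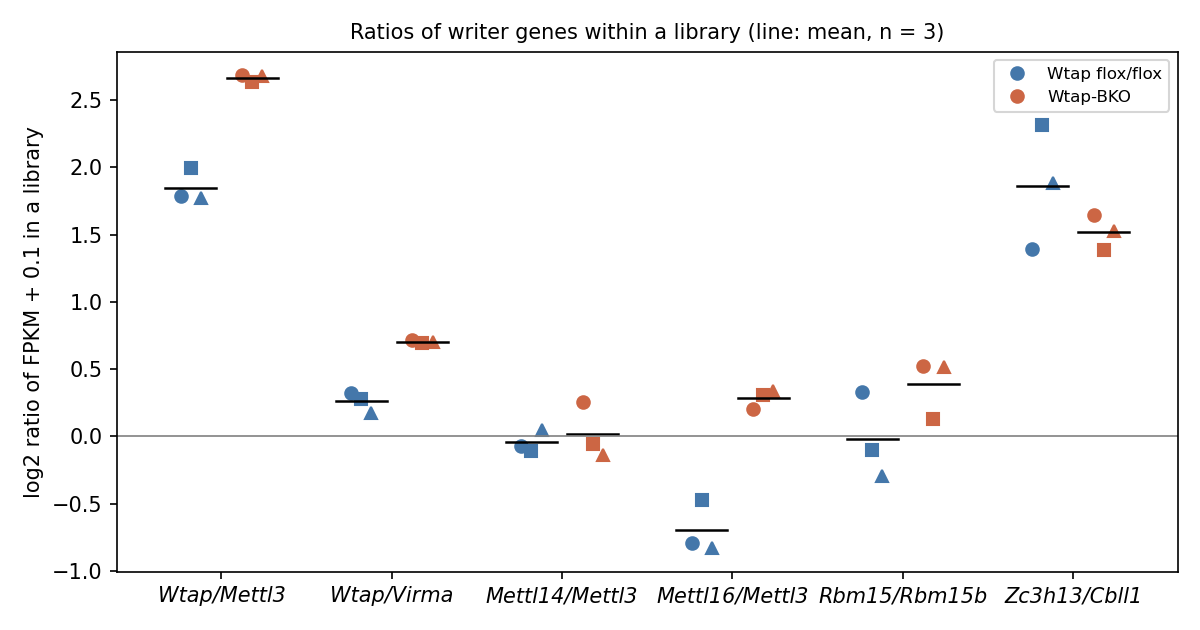
Log2 ratio of FPKM + 0.1 between the genes of 6 pairs in each library (y axis), in blue for Wtap flox/flox and orange for Wtap-BKO, with circles, squares and triangles for replicates 1, 2 and 3 and a line for the mean (n = 3). The groups are separate for Wtap/Mettl3, Wtap/Virma and Mettl16/Mettl3 and overlap for the other 3 pairs.

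Markers of some cell types moved alongside. Brown adipocyte markers summed to 7826 to 9662 FPKM in Wtap flox/flox and 3787 to 5097 in Wtap-BKO, and 5 of 13 fell and 0 rose, where 3.88% of all tested genes fell and 6.1% rose. Ucp1, whose modified allele carries the Cre, fell from 1769 ± 264 to 358 ± 119 FPKM (SD, n = 3, limma adjusted p = 0.00495). Macrophage markers summed to 171 to 256 FPKM against 262 to 391, with 4 of 13 tested higher and 0 lower. Fibroblast and preadipocyte markers summed to 219 to 274 against 262 to 405 FPKM, with 1 of 12 higher, near the 6.1% of all genes. General adipocyte markers summed to 5591 to 5989 against 5695 to 6564 FPKM, with 1 of 10 higher, also near it. Endothelial markers, at 366 to 484 against 267 to 428 FPKM, had 0 of 12 called. Of the T cell markers 0 of 3 tested were called, and of the B cell markers 1 of 2 fell. No listed marker was at 0 in all libraries. Their part in the Wtap and Mettl16 differences was not tested.

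By Pearson correlation of log2(FPKM + 0.1) over the 6 libraries, the protein-coding genes most like Wtap were Chst14 (r = 0.998), Cd151 (0.997) and Ctsz (0.997). Those most like Mettl16 were Ctsl (0.997), Bloc1s3 (0.996) and Epdr1 (0.996), and Ttc21b (0.995) was the most like Mettl3. These 6 points include the difference between the groups, so the likeness includes that difference. Ctsl and Ctsz encode lysosomal cathepsins and Cd151 a tetraspanin. Ctsl was at 20.4, 22.5 and 20.6 FPKM in Wtap flox/flox and at 29.9, 35.1 and 34.7 in Wtap-BKO, with replicate 2 the highest library of both groups.

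Both called members have promoter sequence in the RefSeq table (GRCm38.p6), which matched 7 of the 9 genes. The windows below run from 250 bases before to 50 after an annotated start and are shown because these genes were called in the same direction. Capitals mark a CCAAT box (CCAAT or ATTGG) or a GC box (GGGCGG or CCGCCC), searched on both strands. Of 3 Wtap windows in the table the first is printed, at chr17:12992494-12992793, minus strand, and that of Mettl16 at chr11:74770613-74770912, plus strand.
Wtap promoter: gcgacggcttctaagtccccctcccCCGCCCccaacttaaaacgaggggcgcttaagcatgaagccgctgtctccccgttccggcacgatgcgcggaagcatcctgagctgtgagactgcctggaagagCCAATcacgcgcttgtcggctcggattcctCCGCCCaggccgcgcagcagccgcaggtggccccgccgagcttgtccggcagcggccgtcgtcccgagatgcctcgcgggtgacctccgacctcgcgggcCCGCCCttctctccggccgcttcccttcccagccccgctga
Mettl16 promoter: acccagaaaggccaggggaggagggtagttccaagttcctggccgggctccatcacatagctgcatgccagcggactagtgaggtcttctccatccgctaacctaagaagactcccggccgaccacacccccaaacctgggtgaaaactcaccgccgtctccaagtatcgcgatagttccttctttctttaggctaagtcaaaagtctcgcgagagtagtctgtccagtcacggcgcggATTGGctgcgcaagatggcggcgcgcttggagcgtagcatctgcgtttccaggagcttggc
The printed Wtap window holds 3 GC boxes and 1 CCAAT box at 69.3% GC. Of the other Wtap windows, the one at chr17:12992210-12992509 holds 4 GC boxes and 0 CCAAT boxes at 80.3% GC. The Mettl16 window holds 0 GC boxes and 1 CCAAT box at 57.7% GC. Among all 32851 promoter windows of the table, 35.7% hold a GC box and 37.4% a CCAAT box, and the median GC content is 52.7%. None of these windows holds a TATA box (TATAAA or TTTATA), which 13.6% of all windows hold. Uncalled members hold the same boxes. The Rbm15 window has 2 CCAAT boxes and 1 GC box, and those of Rbm15b, Zc3h13 and Cbll1 hold GC boxes but 0 CCAAT boxes. That of Mettl3 holds 0 of either. The boxes thus do not set the called members apart, and these matches describe the letters only.

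Mat2a, the mRNA target of METTL16, was variable and did not pass the test. It was at 9.95, 13.9 and 10.2 FPKM in Wtap flox/flox and at 8.55, 1.87 and 10.5 FPKM in Wtap-BKO. Wtap-BKO replicate 2 was far below the rest, Wtap-BKO replicate 3 lay within the flox/flox range, and the means were 11.3 ± 2.22 and 6.97 ± 4.52 FPKM (SD, n = 3, log2 difference -1.0 ± 0.597 SE, limma adjusted p = 0.317). The Mat2a value pools all annotated exon bases, 4486 against 2804 in the main transcript, so spliced and partly spliced forms are not separated. The transcript holds UACAGAGAA, a recognition motif of METTL16, in 5 places, all after the stop codon. Only this exact string was searched, so sites of another form are not counted. Each stretch of 30 bases below has the motif in capitals.
Mat2a 40 bases after the stop: uggcguagguUACAGAGAAgccuucaagcu
Mat2a 824 bases after the stop: ccuugugauaUACAGAGAAgucacagggca
Mat2a 1003 bases after the stop: cugguguagcUACAGAGAAaccagcuuccu
Mat2a 1118 bases after the stop: auggcguaagUACAGAGAAgccaucaccuc
Mat2a 1337 bases after the stop: gcugguguggUACAGAGAAgccagcuuguu

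In the methionine and S-adenosylmethionine cycle, which supplies the methyl donor, 2 of 17 tested genes, Mtr and Mat2b, fell and 0 rose, beside 3.88% and 6.1% of all tested genes (3 higher and 3 lower at an unadjusted p under 0.05 by limma, beside 15.7% and 13.2% of all genes, median log2 difference 0.058, -0.004 over all tested genes). Mtr, methionine synthase, was at 5.56, 5.43 and 4.96 FPKM in Wtap flox/flox and at 3.40, 3.28 and 3.07 FPKM in Wtap-BKO, with no overlap (limma adjusted p = 0.0145). Mat2b, the regulatory subunit of the MAT2A synthetase, was at 19.4, 18.3 and 18.6 FPKM in Wtap flox/flox and at 14.0, 12.8 and 12.9 FPKM in Wtap-BKO (limma adjusted p = 0.0211). Mtr was not called when replicate 1 or 2 of the controls was left out, or Wtap-BKO replicate 3, nor Mat2b when any single library but Wtap-BKO replicate 1 was left out or with library size alone as the scaling. Cth, which makes cysteine from cystathionine, was at 1.91 ± 0.313 and 3.38 ± 1.32 FPKM (limma adjusted p = 0.147), Ahcyl1 at 125.8 ± 17.8 and 88.9 ± 23.5 (0.159) and Adi1 at 16.6 ± 0.513 and 19.5 ± 1.34 (0.165). Mat1a, Bhmt, Bhmt2, Cbs and Amd2 did not pass the filter, at 0.630 FPKM at most.

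Of 11 tested erasers and readers of m6A, 1 rose and 1 fell by limma (2 higher and 2 lower at an unadjusted p under 0.05, median -0.165). Over all tested genes 6.1% rose and 3.88% fell, or 15.7% and 13.2% unadjusted, so these counts are near the background. Ythdf2, a cytoplasmic reader that promotes decay of methylated mRNA, was at 5.77, 7.75 and 6.50 FPKM in Wtap flox/flox and at 8.96, 10.2 and 11.2 in Wtap-BKO (limma adjusted p = 0.0471). Rbmx, an RNA-binding protein that recognises sites opened by the mark, was at 11.7, 9.83 and 11.4 FPKM in Wtap flox/flox and at 8.30, 5.68 and 6.11 in Wtap-BKO (adjusted p = 0.0390). Both calls were lost with no filter on low values and without any single library but Wtap-BKO replicate 1, and that of Rbmx also with library size alone as the scaling. Ythdf1, a related cytoplasmic reader, was at 12.7 ± 1.10 and 16.8 ± 1.68 FPKM (limma adjusted p = 0.0747, and 0.0330 with library size alone, where the list had 2 genes higher and 0 lower), Hnrnpa2b1 at 91.6 ± 6.21 and 76.5 ± 3.19 (0.129), the nuclear reader Ythdc1 at 4.70 ± 0.0723 and 4.06 ± 0.129 (0.222) and Hnrnpc at 25.7 ± 1.10 and 22.5 ± 2.81 (0.311).

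Of 14 tested genes for WTAP-associated proteins and for factors that place or restrain the mark, 0 were called by limma. Over all tested genes 6.1% were called higher and 3.88% lower. At an unadjusted p under 0.05 by limma, 0 of this list were higher and 5 lower, beside 15.7% and 13.2% of all genes. That lower share is above the background, and the list was not tested as a set. The median log2 difference was -0.136, beside -0.004 for all tested genes, and 4 of the 14 were positive. Thrap3, a splicing factor found with WTAP, came nearest, at 16.0, 16.1 and 15.2 FPKM in Wtap flox/flox and at 12.2, 12.1 and 12.8 FPKM in Wtap-BKO, with no overlap (limma adjusted p = 0.0523). It was called in 4 alternatives: voom, a minimum of 1 FPKM, protein-coding genes only and a robust variance. Its partner Bclaf1 was at 5.63 ± 0.827 and 4.16 ± 0.531 FPKM (limma adjusted p = 0.128). The exon junction complex proteins Rnps1 and Acin1 were at 13.0 ± 1.27 and 10.3 ± 0.774 (0.112) and at 11.5 ± 0.864 and 9.59 ± 0.239 (0.146).

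U6 RNA is the other substrate of METTL16, and of 15 genes for its maturation and binding 0 were called by limma or voom. Limma called 6.1% of all tested genes higher and 3.88% lower. In this list 0 were higher and 3 lower at an unadjusted p under 0.05 by limma, beside 15.7% and 13.2% of all genes. The median log2 difference was -0.111, beside -0.004 for all tested genes. Lsm5, of the LSM ring that binds the end of U6, was at 4.53, 5.04 and 5.44 FPKM in Wtap flox/flox and at 4.12, 1.39 and 0.202 in Wtap-BKO, so that the Wtap-BKO libraries spread far apart (limma adjusted p = 0.168, called only without Wtap-BKO replicate 1). Lsm8 was at 2.58 ± 0.118 and 1.98 ± 0.177 FPKM (limma adjusted p = 0.125), Lsm6 at 4.24 ± 0.198 and 3.48 ± 0.273 (0.161) and Lsm3 at 2.59 ± 0.599 and 3.46 ± 0.265 (0.174).

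Among 30 tested genes of other RNA methyltransferases and their partners, 1 rose and 1 fell by limma (4 higher and 4 lower at an unadjusted p under 0.05, median 0.054), beside 6.1% and 3.88% of all tested genes (15.7% and 13.2% unadjusted). Each of these shares is near or below that of all genes. Mettl15, which methylates mitochondrial ribosomal RNA, was at 4.17, 3.67 and 3.51 FPKM in Wtap flox/flox and at 1.66, 1.96 and 2.23 FPKM in Wtap-BKO (limma adjusted p = 0.0163), and its call was lost without flox/flox replicate 1 or 2. Trmt10c, a subunit of mitochondrial RNase P that methylates mitochondrial tRNA, was at 8.33, 9.45 and 8.19 FPKM in Wtap flox/flox and at 10.7, 12.8 and 13.0 FPKM in Wtap-BKO (limma adjusted p = 0.0482). That call was lost with no filter on low values and without any single library but Wtap-BKO replicate 1. Mitochondrially encoded genes took 18.3% to 22.4% of the reads in Wtap flox/flox and 11.0% to 12.2% in Wtap-BKO, and their part in these values was not tested. Rnmt, the mRNA cap methyltransferase, was at 5.52 ± 1.78 and 2.86 ± 0.365 FPKM (limma adjusted p = 0.0677), Trmt112 at 7.19 ± 0.596 and 9.56 ± 0.894 (0.0730), the tRNA methyltransferase gene Trmt61a at 3.22 ± 0.881 and 5.26 ± 0.697 (0.0795) and Wdr4 at 6.13 ± 1.33 and 4.10 ± 0.310 (0.101).

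**Figure D5:**
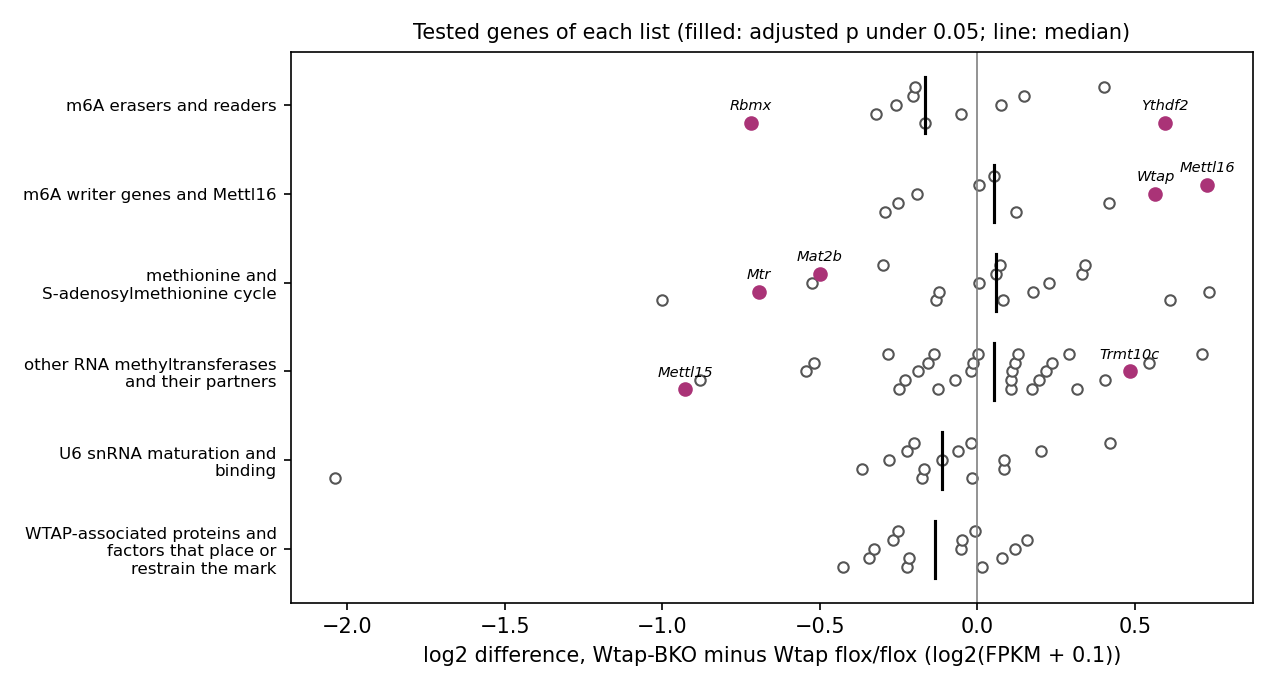
Log2 difference between Wtap-BKO and Wtap flox/flox (x axis, log2(FPKM + 0.1)) for the tested genes of each list (rows), filled and named where the adjusted p was under 0.05, with a line at the list's median. The medians lie between -0.165 and 0.058, and each of the 6 lists has from 0 to 2 called genes.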

How the data were processed

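RNA-seq of iBAT gave 6 libraries, 3 Wtap flox/flox and 3 Wtap-BKO, grouped by the genotype in the labels. The authors aligned paired reads to GRCm38.p6 with HISAT2 2.0.5, counted with featureCounts 1.5.0-p3 and tested with DESeq2 1.16.1. The deposited values are FPKM, which the authors had already scaled between libraries: the sizes behind them equalled median-of-ratios factors in all 6. Reads per gene were recovered from FPKM and gene length, with 100% whole within 0.01, and totalled 15979694 to 19005123 per library. Columns of per-sample values not used numbered 0.

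The 13507 genes that averaged 0.5 FPKM and 10 recovered reads or more were fitted on log2(FPKM + 0.1), which understates changes of low genes, with limma 3.58.1 (R 4.3.3), the group as its term and a variance trend. P-values were two-sided and adjusted by Benjamini-Hochberg over all tested genes, with calls made below 0.05. Ratios used exact permutation tests (scipy 1.17.1). Percentages for counting variation cover counting error only.

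The members and lists were chosen with earlier results of these data known. The genes named were the 9 members, every called list gene and up to 4 others per list with the smallest p, Mat2a, Ucp1, genes overlapping a member and the 3 genes most like Wtap, Mettl16 and Mettl3. The results of 3 uncalled genes under this rule are not reported here. The replicates are biological by the study's account, and the spread that p-values rest on is that between the 6 samples. Replicates of a group differed beyond sampling noise (chi-square per degree of freedom at least 22.6). The limma step was also run on simulated data as a check of the code only. Those data held no libraries set apart as by muscle transcripts, so they cannot show how the fit behaves with such libraries. In GENCODE (M21), 55240 of 55703 identifiers were found, 54985 with identical bounds. Protein sequences were not used here.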

Additional observations from a re-analysis of the deposited data

How the results depend on the processing

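Counting alone gave 2.59% to 9.95% variation per member value, and for Mettl3 and Rbm15b in both groups this was at least the SD between libraries. The number of members called higher was 2 as reported, 1 with no filter on low values, and 0 without both libraries with muscle transcripts. With 1 library left out it was 0 to 2, being 0 without any flox/flox library or without Wtap-BKO replicate 3 and 1 without Wtap-BKO replicate 2. No alternative called a member lower. The related lists held 6 called genes as reported, 3 with no filter, 26 at an unadjusted p, 0 without both muscle libraries and 0 to 8 with 1 library left out. Over all genes 824 were higher and 524 lower, against 1115 and 310 with library size alone, 442 and 245 with no filter, 2116 and 1781 at an unadjusted p, 0 and 0 without both muscle libraries, and 219 to 849 and 88 to 428 with 1 library left out. The cause of these shifts was not tested.

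Of the members, 7 kept their direction in all 17 alternatives. Rbm15b turned to a log2 difference of -0.022 without flox/flox replicate 2, -0.010 without Wtap-BKO replicate 1 and -0.0034 without both muscle libraries (range with 1 left out -0.022 to 0.024). Cbll1 turned to -0.098 without flox/flox replicate 2 and -0.12 without both (range -0.098 to 0.18). Neither gene was called, and the cause was not tested. With 1 library left out, the Mettl14 to Mettl3 log2 ratio, 0.061, ran from -0.056 (without Wtap-BKO replicate 1) to 0.14 (without Wtap-BKO replicate 3), and Zc3h13 to Cbll1, -0.35, from -0.58 (without flox/flox replicate 1) to -0.12 (without flox/flox replicate 2).

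The labels number replicates alike in both groups without saying that a number pairs mice. Deviations of same-numbered libraries correlated at -0.05, -0.40 and -0.27. Those of differently numbered libraries ran from -0.38 to 0.56. The highest was that of flox/flox replicate 2 with Wtap-BKO replicate 3, the libraries with muscle transcripts. With the replicate number as a block, 0 members and 0 related genes were called (Wtap adjusted p = 0.0711, Mettl16 0.0929, by limma), and 211 genes were higher and 97 lower. For the ratios, exact paired p-values were at least 0.25, the smallest that 3 pairs allow.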
